A study of Mus musculus with 4 samples.

Results

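The genes described here are the splicing factors whose symbols start with Hnrnp, Srsf, Rbfox, Celf, Nova or Elavl, 45 of the 19465 genes listed, taken by symbol alone. They comprise 19 hnRNP genes, 11 SR genes, 3 Rbfox genes, 6 Celf genes, 2 Nova genes and 4 Elavl genes. Their transcripts were counted on Visium capture arrays, which assign each unique molecular identifier (UMI, one tagged captured molecule) to a spot of tissue, in formalin-fixed, paraffin-embedded mouse brain cut at 5 µm. There were 2 rNLS8 sections and 2 control sections, all from mice 11 weeks old and 3 weeks after doxycycline (Dox) withdrawal, a treatment that both groups had. rNLS8 mice carry a human TDP-43 transgene with a disabled nuclear import signal, switched on by Dox withdrawal in the cells that use the neurofilament heavy chain promoter. Not every neuron is such a cell. The alleles of the control mice are given only as the genotype Control. The labels name replicate 1 of each group female and replicate 2 male, and do not say whether each section is from an animal of its own.

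hnRNP proteins coat new transcripts and often block the use of nearby splice sites, whereas SR proteins bind exons through RNA recognition motifs and recruit the splicing machinery through their arginine and serine repeats. Nova, Rbfox, Celf and Elavl proteins bind short sequence motifs in transcripts, and in neurons they set which exons are kept, or, for much of the Elavl family, how stable a transcript is. TDP-43, the protein whose mislocalisation the rNLS8 mouse models, is itself an hnRNP, and splicing of its target transcripts changes when it leaves the nucleus.

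The sections held 28056089 and 17627577 UMI in rNLS8, against 19064969 and 23869254 UMI in control. The median spot under tissue held 9772 and 6316 UMI in rNLS8, against 5074 and 6011 UMI in control. Mouse Tardbp, the gene of TDP-43, had 197 and 138 UMI in the rNLS8 sections and 0 UMI in both control sections, so it is not read as a level of the endogenous gene. Y-linked genes were at 137 and 139 CPM (counts scaled to a common section total) in rNLS8 replicates 1 and 2, against 0 and 107 CPM in control replicates 1 and 2. The section labelled rNLS8 replicate 1 thus goes against its label of female, and the rNLS8 sections may or may not be from different animals. P-values reflect no more than the spread of these sections, which may be technical. Control replicate 1 also stood apart. In the cortex, 981 of 12184 genes (8.05%) were at under 0.5 of their level in control replicate 2, while 181 (1.49%) were so low in control replicate 2 against control replicate 1. Of the 43 members tested there, 5 were among the genes low in control replicate 1, namely Srsf3, Srsf5, Srsf7, Hnrnpl and Hnrnpul1.

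Spots were clustered on region markers, and each region's UMI were added up within a section, because the spots of 1 section are no replicates. The cortex held 771 and 887 spots in rNLS8, against 926 and 701 spots in control, in 3 clusters led by the upper-layer gene Cux2, by Fezf2 and Dkkl1, and by layer 6 genes such as Cplx3, Nxph3 and Rprm. The immune genes Cst7 and Cxcl10 were also among the leading genes of the Fezf2 cluster. Levels are given as CPM scaled by trimmed means (TMM), and every group has n = 2 sections. A fold is the log2 ratio of rNLS8 over control from edgeR's quasi-likelihood test. Its standard error (SE) was obtained by dividing its size by the root of the F statistic. A gene was called when its Benjamini-Hochberg adjusted p over all genes tested was under 0.05. The arrays use probes, which capture genes with unequal yield, so no member's level was set against another's. A lower level in a spot can come from fewer cells of a type or from less RNA per cell, which cannot be told apart here.

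Nova1 was lower in the cortex of rNLS8, and it was the only member called there. Its protein is a neuronal splicing regulator first known as an antigen of a paraneoplastic movement disorder, and binds clusters of a short pyrimidine-CA-pyrimidine motif. Nova1 stood at 41.2 and 35.5 CPM in the rNLS8 cortex, from 361 and 288 UMI, against 76.5 and 76.1 CPM in the control cortex, from 449 and 517 UMI. The groups did not overlap, and the sections within each group lay close together. The fold was -0.99 (SE 0.156), with an adjusted p = 0.0494 by edgeR, close to the threshold. Across the edgeR and DESeq2 alternatives the fold ran from -1.10 to -0.84 and the adjusted p from 0.000953 to 0.514, with the highest values when 1 rNLS8 section was left out (0.145 without replicate 1, whose sex label is in conflict, and 0.514 without replicate 2). Scaling to library totals (0.0763) and regions taken by marker score (0.0614) also ended the call. Within the cortex, Nova1 was called lower in the upper-layer cluster alone (-1.09, SE 0.201, edgeR adjusted p = 0.0298) and in the deep-layer clusters alone (-0.93, SE 0.166, edgeR adjusted p = 0.0423), where 2.27% and 1.8% of all genes were called.

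Of the 12184 genes tested in the cortex, 115 (0.944%) were called, 54 (0.443%) higher and 61 (0.501%) lower. The single call among 43 members tested, out of 45, is read against that share. Hnrnph2 and Elavl4 had the next lowest folds and did not pass the threshold. Elavl4, which encodes the neuronal RNA-binding protein HuD that stabilises transcripts for neurite growth, stood at 105 and 114 CPM in the rNLS8 cortex, against 169 and 169 CPM in the control cortex. Its fold was -0.63 (SE 0.139, edgeR adjusted p = 0.0846). Hnrnph2, an X-linked gene whose protein binds G-rich runs near splice sites, stood at 239 and 231 CPM in the rNLS8 cortex, against 402 and 336 CPM in the control cortex. The groups did not overlap for either gene. The fold of Hnrnph2 was -0.65 (SE 0.153, edgeR adjusted p = 0.0943), and the section with no Y-linked counts, control replicate 1, was its highest. DESeq2 called Nova1 (adjusted p = 0.000953), Hnrnph2 (0.0143) and Elavl4 (0.0224) in the cortex, where it called 5.5% of 11711 genes. Hnrnph1, the close relative of Hnrnph2, is not among the genes listed, and the value of Hnrnph2 is uncertain if its probes also bind that transcript.

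The loci and promoter windows of these 3 genes are shown because they had the largest folds below 0 among the members in the cortex. Nova1 lies at chr12:46697895-46819480, Elavl4 at chr4:110203737-110351939 and Hnrnph2 at chrX:134601179-134607060 in GRCm38.p6, the build named mm10 in the labels. The windows, from RefSeq, run from 250 bases before to 50 bases after a listed transcription start, 5′ to 3′ on the gene's strand. The Nova1 window lies wholly inside the Nova1 locus, downstream of its 5′ end at 46819480. That of Nova1 is chr12:46818718-46819017 on the minus strand, that of Elavl4 is chr4:110351862-110352161 on the minus strand and the first of 4 starts in the table, and that of Hnrnph2 is chrX:134600929-134601228 on the plus strand. Capitals mark the GC box, GGGCGG on either strand.
Nova1: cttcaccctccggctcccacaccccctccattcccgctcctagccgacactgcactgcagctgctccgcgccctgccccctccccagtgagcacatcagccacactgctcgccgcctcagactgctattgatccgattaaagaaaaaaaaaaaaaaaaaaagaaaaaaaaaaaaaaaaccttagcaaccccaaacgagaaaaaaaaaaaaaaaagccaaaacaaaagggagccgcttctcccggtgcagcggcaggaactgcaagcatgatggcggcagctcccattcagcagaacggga
Elavl4: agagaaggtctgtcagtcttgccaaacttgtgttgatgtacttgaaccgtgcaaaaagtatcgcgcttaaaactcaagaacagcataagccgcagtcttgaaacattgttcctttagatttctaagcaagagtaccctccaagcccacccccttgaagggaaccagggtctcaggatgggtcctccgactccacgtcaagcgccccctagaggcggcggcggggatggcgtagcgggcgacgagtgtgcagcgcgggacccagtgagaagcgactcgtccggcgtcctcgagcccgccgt
Hnrnph2: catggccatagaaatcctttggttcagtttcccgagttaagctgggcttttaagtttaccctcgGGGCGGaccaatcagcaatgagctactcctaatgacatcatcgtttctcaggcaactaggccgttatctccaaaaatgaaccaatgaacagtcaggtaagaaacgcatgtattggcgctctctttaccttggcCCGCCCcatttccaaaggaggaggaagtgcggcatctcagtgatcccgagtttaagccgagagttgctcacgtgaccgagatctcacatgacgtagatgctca

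Hnrnph2 holds 2 GC boxes in its window, and the Nova1 and Elavl4 windows hold none. Since the Nova1 window is inside its locus, its motifs and base content do not describe the sequence upstream of that locus. GC boxes occur in 35.7% of the 32851 promoter windows of the same length. The E-box, CANNTG, was found once in Nova1, at 2 places in Hnrnph2 and nowhere in the Elavl4 window, and 72.3% of all windows hold one. Neither the palindromic CRE, TGACGTCA (1.79% of all windows), nor TATAAA (13.6%) was found in any of the 3 windows on either strand. The windows were 51.7%, 57% and 49% G or C for Nova1, Elavl4 and Hnrnph2, where the median of all windows is 52.7%. None of the 4 motifs searched is in all 3 windows. The table holds a window for 41 of the 45 members.

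**Figure D1:**
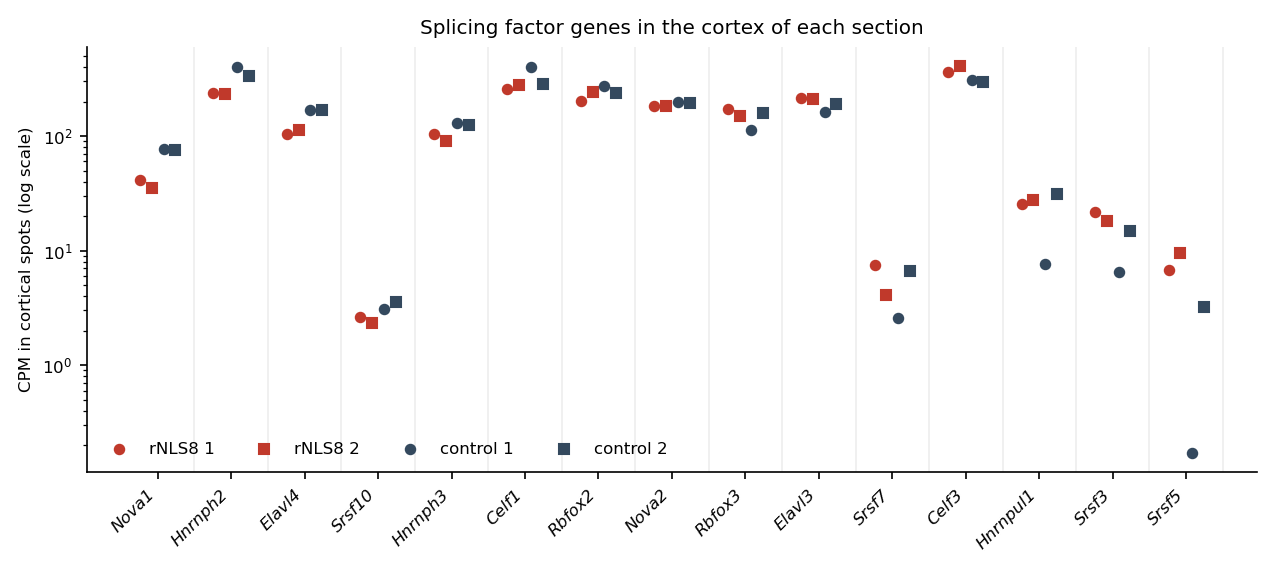
Levels of the 15 named splicing factor genes in cortical spots, in CPM on a log axis, with 1 point per section (rNLS8 in red, left, and control in dark blue, right; circles for replicate 1, squares for replicate 2) and genes ordered by fold. Nova1 lies at 41.2 and 35.5 CPM in rNLS8, below 76.5 and 76.1 CPM in control, whereas for Srsf5, Srsf3 and Hnrnpul1 control replicate 1 alone lies far below the other sections.

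Among the hnRNP genes, 18 of 19 were tested in the cortex and none was called by edgeR, with 2 at an unadjusted p under 0.05. Their folds were below 0 in 13 and above 0 in 5, with a median of -0.15 and a range from -0.65 to 0.43. After Hnrnph2, the lowest was Hnrnph3, a relative of Hnrnph2, at 104 and 89.8 CPM in rNLS8, against 131 and 126 CPM in control (-0.41, SE 0.148, edgeR adjusted p = 0.198). Its groups did not overlap. Hnrnpa1 and Hnrnpa2b1, whose human counterparts carry mutations in rare multisystem protein aggregation disease, had folds of -0.15 (SE 0.158, edgeR adjusted p = 0.617) and -0.33 (SE 0.152, edgeR adjusted p = 0.284). Without control replicate 1 these folds were -0.0028 and -0.20. Hnrnpa2b1 stood at 465 and 450.1 CPM in rNLS8, against 622 and 526 CPM in control, with no overlap of the groups. Hnrnpu, a nuclear scaffold protein, stood at 398 and 404 CPM in rNLS8, against 445 and 445 CPM in control (-0.15, SE 0.136, edgeR adjusted p = 0.567). The groups of Hnrnpu did not overlap either, but the gap between them was small. In CPM of library totals they overlapped, so no direction is given for Hnrnpu in the cortex. The highest hnRNP fold, that of Hnrnpul1, turns on 1 library. Hnrnpul1 had 25.6 and 27.4 CPM in rNLS8, against 7.67 and 31.3 CPM in control (0.43, SE 0.534, edgeR adjusted p = 0.684), and its fold was -0.25 without control replicate 1. Hnrnpr is listed at 0 UMI in all 4 sections. By counting error alone, 3 counts per section would allow 0.107 and 0.170 CPM in rNLS8 and 0.158 and 0.126 CPM in control, but whether its probes worked is not known, so the 0 is not read as a level.

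All 11 SR genes were tested in the cortex and none was called by edgeR, with 2 at an unadjusted p under 0.05. Their folds were below 0 in 6 and above 0 in 5, with a median of -0.13. The largest fold of any member was that of Srsf5, an SR protein that promotes exon inclusion. Srsf5 had 59 and 78 UMI in the rNLS8 cortex, at 6.74 and 9.62 CPM, against 1 and 22 UMI in the control cortex, at 0.170 and 3.24 CPM. Its fold was 2.20 (SE 0.773, edgeR adjusted p = 0.187). Srsf3, which also takes part in export of messenger RNA, had 21.8 and 18.0 CPM in rNLS8, against 6.48 and 14.7 CPM in control (0.90, SE 0.374, edgeR adjusted p = 0.243). For both genes the groups did not overlap, and control replicate 1 was the lowest section. Without it the folds were 1.33 for Srsf5 and 0.44 for Srsf3. Without control replicate 2 the fold of Srsf3 was 1.59, and none is given for Srsf5, for which 1 control UMI remains. Srsf7, close to Srsf3 in sequence, had 7.42 and 4.07 CPM in rNLS8, against 2.56 and 6.62 CPM in control (0.31, SE 0.515, edgeR adjusted p = 0.767), with overlapping groups, and its fold was -0.20 without control replicate 1 and -0.18 without rNLS8 replicate 1. At the other end of the family, Srsf10, which represses splicing when dephosphorylated, had 2.63 and 2.34 CPM in rNLS8, against 3.07 and 3.53 CPM in control (-0.41, SE 0.374, edgeR adjusted p = 0.569). It had 24 UMI or fewer in the cortex of every section, and what size of difference could be detected at such counts was not tested. Srsf11 was lower in both rNLS8 sections at 303 and 302 CPM, against 374 and 367 CPM in control (-0.29, SE 0.135, edgeR adjusted p = 0.286).

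The 14 tested members of the neuronal families pointed both ways in the cortex. Nova2, the relative of Nova1 that acts in cortical neuron migration and axon guidance, stood at 184 and 181 CPM in rNLS8, against 199 and 193 CPM in control. Its fold was -0.10 (SE 0.135, edgeR adjusted p = 0.693), and 0.047 under library totals, so no direction is given for it. Rbfox3, the gene of the neuronal antigen NeuN, had 172 and 150.1 CPM in rNLS8, against 113 and 159 CPM in control (0.24, SE 0.197, edgeR adjusted p = 0.518). Rbfox2 had 201 and 240.2 CPM in rNLS8, against 274 and 237 CPM in control (-0.21, SE 0.162, edgeR adjusted p = 0.493). Both Rbfox genes overlapped between the groups. Without control replicate 1 the fold of Rbfox3 was 0.018 and that of Rbfox2 -0.11, and without control replicate 2 they were 0.48 and -0.34. Rbfox1 had 6 and 1 UMI in the whole rNLS8 sections, against 4 and 15 UMI in the whole control sections, and did not pass the filter on low counts.

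Celf proteins bind GU-rich elements and act on splicing, stability and translation. Celf3 had the highest fold of that family, at 363 and 406 CPM in rNLS8, against 306 and 296 CPM in control (0.35, SE 0.143, edgeR adjusted p = 0.232), and Celf1 the lowest, at 258 and 277 CPM in rNLS8, against 401 and 284 CPM in control (-0.36, SE 0.194, edgeR adjusted p = 0.351). Neither overlapped between the groups by TMM-scaled CPM, although for Celf1 control replicate 2 lay just above the rNLS8 sections. In CPM of library totals the groups of Celf1 overlapped, with a fold of -0.20, so no direction is given for Celf1 in the cortex. The fold of Celf1 was -0.089 without control replicate 1 and -0.61 without control replicate 2. Without control replicate 1 the lowest Celf fold was that of Celf5 (-0.40, and -0.24 with all sections). Elavl3, the neuronal HuC gene, was at 215 and 209 CPM in rNLS8, against 162 and 189 CPM in control (0.27, SE 0.148, edgeR adjusted p = 0.350), so the lowest and highest folds of the Elavl family were in paralogs that are both neuronal. Elavl1, the widely expressed HuR gene, had 34.6 and 32.9 CPM in rNLS8, against 47.2 and 38.0 CPM in control (-0.33, SE 0.175, edgeR adjusted p = 0.336). Without control replicate 1 the fold of Elavl3 was 0.16 and that of Elavl1 -0.17.

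Over the 43 members tested in the cortex, 27 folds (62.8%) were below 0, against 48.2% of all genes tested, and their median was -0.15, against 0.02 for all genes. Both rNLS8 sections lay below both control sections for 19 members (44.2%), against 26.3% of all genes, and above both for 7 members (16.3%), against 28.7%. The other 17 members overlapped between the groups, and over all genes 55% did not overlap. An unadjusted p under 0.05 was found for 7 members, 4 lower and 3 higher in rNLS8, while 20.4% of all genes had one. Under library totals the median of all genes moved up by 0.15, and 20 members were then below 0, with 27 below the median of all genes in that setting, where 28 were below it with TMM.

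**Figure D2:**
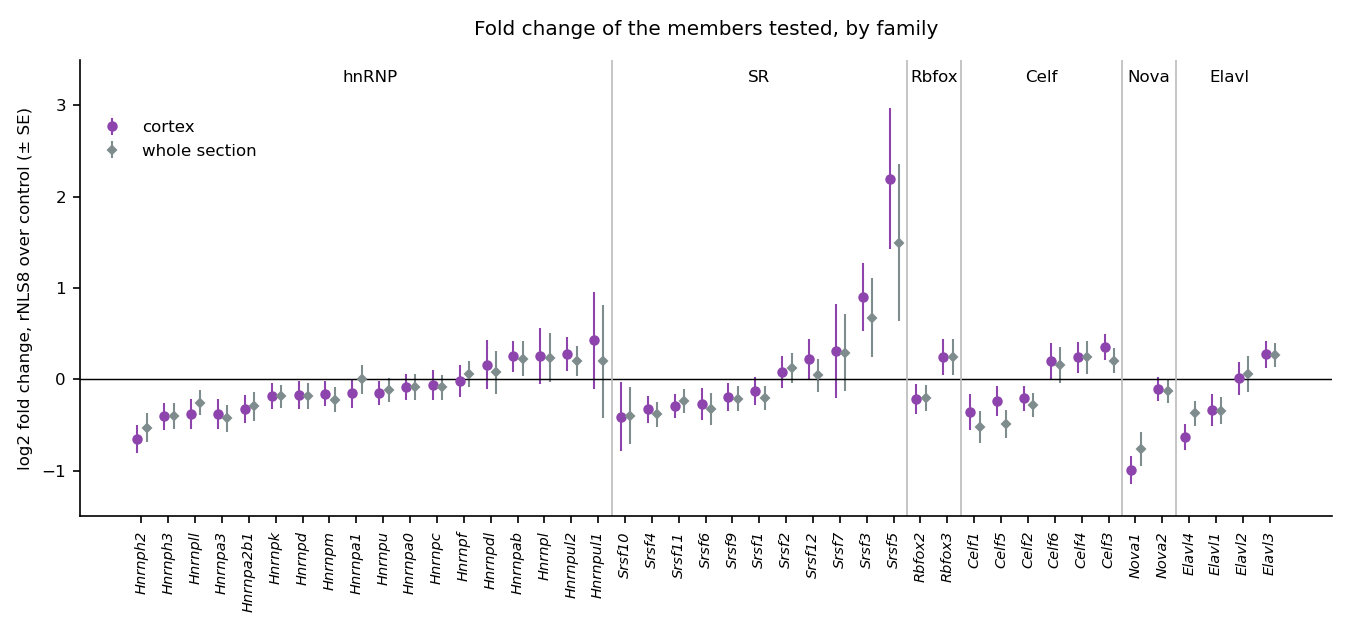
Log2 fold change of rNLS8 over control for the 43 members tested, grouped by family, in cortical spots (purple circles) and whole sections (grey diamonds), with bars of 1 SE; n = 2 sections per group. The lowest cortical fold is that of Nova1 (-0.99) and the highest that of Srsf5 (2.20), whose bar is the longest (SE 0.773).

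In whole sections the same 43 members were tested and none was called, where edgeR called 0 of 13444 genes (0%). The regions made up unlike shares of the kept spots. The cortex was 25.44% and 33.41% of spots in rNLS8, against 24.3% and 21.2% in control. A rim of low-count spots was 12.5% and 21.51% in rNLS8, against 25.62% and 31.55% in control. An unadjusted p under 0.05 was found for 8 members, all lower in rNLS8, and for 2093 genes in all (15.6%). DESeq2 called Nova1 alone among the members (adjusted p = 0.0231) and 526 of 12177 genes (4.32%). Nova1 had 54.4 and 40.4 CPM in rNLS8, against 85.0 and 75.6 CPM in control (-0.76, SE 0.187, edgeR adjusted p = 0.195). Hnrnph2 had 252 and 235 CPM in rNLS8, against 385 and 318 CPM in control (-0.53, SE 0.155, edgeR adjusted p = 0.234), and Celf1 had 290.1 and 297 CPM in rNLS8, against 482 and 360.4 CPM in control (-0.52, SE 0.179, edgeR adjusted p = 0.267). In these 3 genes, which had the lowest folds of the members there, both rNLS8 sections lay below both control sections. The fold of Celf1 was -0.29 without control replicate 1, however, above that of Celf5 (-0.58) in the same fit. With equal numbers of spots of each cluster per section, no member was called. The folds were then -0.76 for Nova1, -0.56 for Hnrnph2 and -0.45 for Celf1, and that of Elavl4 was -0.52, against -0.37 with all kept spots. At the upper end, Srsf5 had 4.98 and 7.12 CPM in rNLS8, against 0.342 and 3.81 CPM in control (1.497, SE 0.859, edgeR adjusted p = 0.430). Srsf3 (0.68) and Srsf7 (0.29) followed. Without control replicate 1, Srsf5 stood at 0.66, Srsf3 at 0.14, Srsf7 at -0.17 and Hnrnpul1 at -0.51. Of the 43 folds, 25 (58.1%) were below 0, against 48.3% of all genes. Members with both rNLS8 sections below both control sections numbered 24 (55.8%), against 25.3% of all genes, and 5 lay above (11.6%, against 26.9%). Over all genes 52.1% did not overlap. Without control replicate 2, a fit with control replicate 1 as the lone control section, 12 members and 1839 of 13610 genes (13.5%) were called.

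Beyond the cortex, the claustrum and endopiriform spots, led by Nr4a2 and Ntng2, had 1 called member. Elavl4 was at 112 and 109.9 CPM there in rNLS8, against 174 and 175 CPM in control (-0.65, SE 0.171, edgeR adjusted p = 0.0380). The sections of each group lay within a few CPM of each other. Cell type markers moved with the groups there too. The 12 general neuronal markers summed to 12390 and 12030 CPM in rNLS8, against 16340 and 15590 CPM in control, with 5 called lower (Snap25, Stmn2, Nefl, Syp and Gap43), and the excitatory marker Nrgn was also called lower. Called higher were 5 of 12 microglial markers, whose list summed to 838 and 1352 CPM in rNLS8, against 376 and 524 CPM in control, 4 of 10 oligodendrocyte markers (11500 and 15280 CPM in rNLS8, against 10200 and 8475 CPM in control) and the astrocyte gene Aqp4. Their part in the call of Elavl4 was not tested. In this region 406 of 9126 genes (4.45%) were called, 260 of them (2.85%) lower, so 1 call among 41 members is not above the share of all genes. The call of Elavl4 was lost by DESeq2 (adjusted p = 0.0872), under library totals (0.0798), under marker scores (0.223), without rNLS8 replicate 1 (0.232) and without rNLS8 replicate 2 (0.522), and its adjusted p ran from 0.00483 to 0.522 over all alternatives. With the replicate number as a block, 3 members were called, Elavl4, Nova1 and Hnrnpa3, where 630 of 9126 genes (6.9%) were. Nova1 was at 38.7 and 30.6 CPM in rNLS8, against 57.0 and 65.5 CPM in control (-0.81, SE 0.248, edgeR adjusted p = 0.0745). Elavl3 again lay the other way, at 222 and 231 CPM in rNLS8, against 166 and 162 CPM in control (0.47, SE 0.162, edgeR adjusted p = 0.118).

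edgeR called none of the members in the other 4 regions tested. An unadjusted p under 0.05 was found for 3 members in fibre tracts (13.5% of all genes), 4 in meninges and vessels (11%), 4 in septum (7.28%) and 6 in striatum (15.3%), as for 9 in claustrum and endopiriform (18.9%). All genes gave 132 of 8668 calls in fibre tracts (1.52%), 45 of 10030 in meninges and vessels (0.449%), 0 of 8223 in septum (0%, with 599 genes at an unadjusted p under 0.05) and 47 of 11939 in striatum (0.394%). DESeq2 gave an adjusted p to 24, 26, 43 and 40 members in these regions in that order, and called none of them. It called 3.08%, 3.72%, 0% and 3.95% of the genes with an adjusted p there. In claustrum and endopiriform it called none of the 29 members with an adjusted p, where it called 7.01% of such genes. Nova1 had no adjusted p by DESeq2 in claustrum and endopiriform. Of the 289 striatal spots of rNLS8 replicate 2, 235 lay in a cluster that held 2 spots of rNLS8 replicate 1 and none of the control sections, and 54 lay in the clusters that held the rest of the striatum of the other sections.

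By TMM-scaled CPM, Nova1 was below both control sections in both rNLS8 sections of each of the 6 regions. That pattern was seen in 26.3% of all genes in cortex, 24.3% in claustrum and endopiriform and 22.4% in fibre tracts. It was seen in 21.2% in meninges and vessels, 20.2% in septum and 23.6% in striatum. The folds of Nova1 were -0.78 in fibre tracts, -0.89 in meninges and vessels, -0.41 in striatum and -0.32 in septum. In striatum it had 47.6 and 61.4 CPM in rNLS8, against 80.0 and 63.3 CPM in control. In septum it had 121 and 76.8 CPM in rNLS8, against 134 and 123 CPM in control. In both regions 1 rNLS8 section lay near a control section, and no adjusted p was under 0.05 (0.375 and 0.854 by edgeR). In CPM of library totals the groups of Nova1 overlapped in both of these regions. In fibre tracts Nova1 had 45 and 23 UMI in rNLS8, against 19 and 45 UMI in control. By library totals rNLS8 replicate 1 lay near control replicate 1 there. The groups of Hnrnph2 did not overlap by TMM-scaled CPM in any of the 6 regions, with folds from -0.65 in cortex to -0.27 in fibre tracts. In fibre tracts, by library totals, control replicate 2 lay just above the rNLS8 sections of Hnrnph2. Elavl4 in striatum, at 60.6 and 60.9 CPM in rNLS8, against 85.1 and 64.2 CPM in control, had a fold of -0.29 (SE 0.184, edgeR adjusted p = 0.493), and in septum its groups overlapped.

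Of the 40 members tested in all 6 regions, 17 (42.5%) had a fold below 0 in each region, against 20.7% of 7918 genes, and 8 (20%) had a fold above 0 in each, against 19.4%. Those below 0 were Nova1, Elavl4, Rbfox2, Celf1, Celf2, Celf5, Srsf1, Srsf4, Srsf6, Srsf11, Hnrnph2, Hnrnph3, Hnrnpa3, Hnrnpa2b1, Hnrnpll, Hnrnpm and Hnrnpu. Those above 0 were Celf3, Celf4, Elavl2, Elavl3, Rbfox3, Srsf3, Hnrnpab and Hnrnpl. The regions come from the same 4 sections, so these are counts of signs and not separate tests. The signs are those under TMM. They were not counted under library totals, where 20 members were below 0 in the cortex, against 27 with TMM. Of those below 0, Hnrnpu, Hnrnpm, Srsf1, Srsf6, Rbfox2, Celf1 and Celf5 overlapped between the groups in the cortex by library totals. Celf5 in striatum, at 71.4 and 72.5 CPM in rNLS8, against 108 and 102 CPM in control (-0.55, SE 0.148, edgeR adjusted p = 0.152), and Hnrnpa3 in claustrum and endopiriform, at 94.3 and 79.3 CPM in rNLS8, against 139 and 131 CPM in control (-0.63, SE 0.187, edgeR adjusted p = 0.0661), were the lowest folds of these families in those regions.

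**Figure D3:**
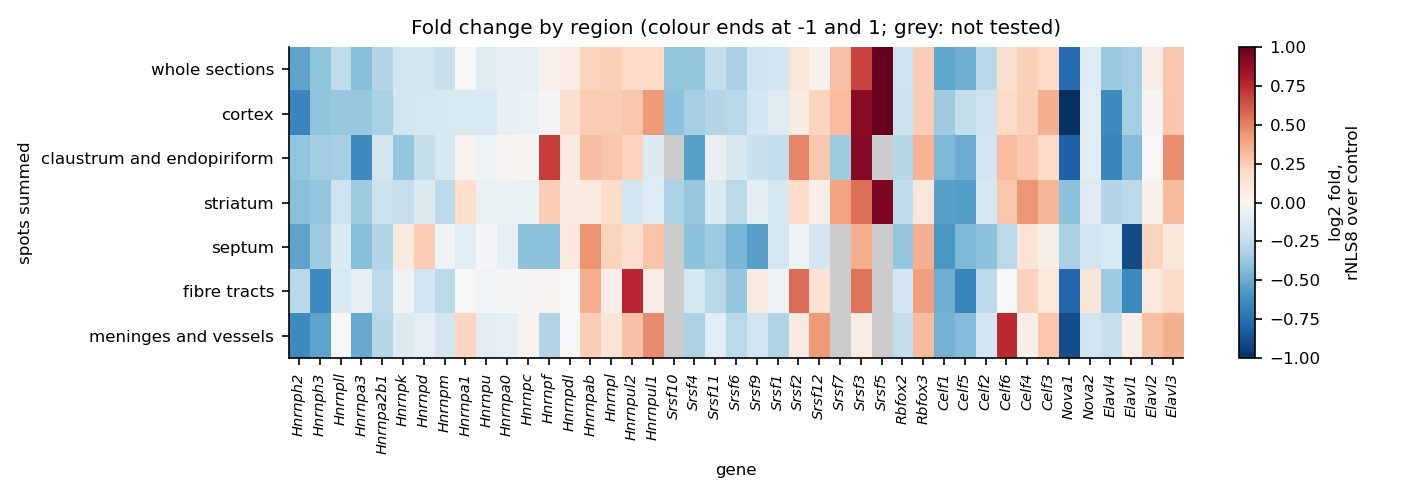
Log2 fold change of rNLS8 over control for each member (columns, ordered by family and cortical fold) in whole sections and 6 regions (rows), with blue below 0, red above 0 and grey where a member was not tested; colours end at -1 and 1, so Srsf5 in cortex (2.20) is shown at the end of the scale. Nova1, Hnrnph2 and Celf1 are blue in every row.

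**Figure D4:**
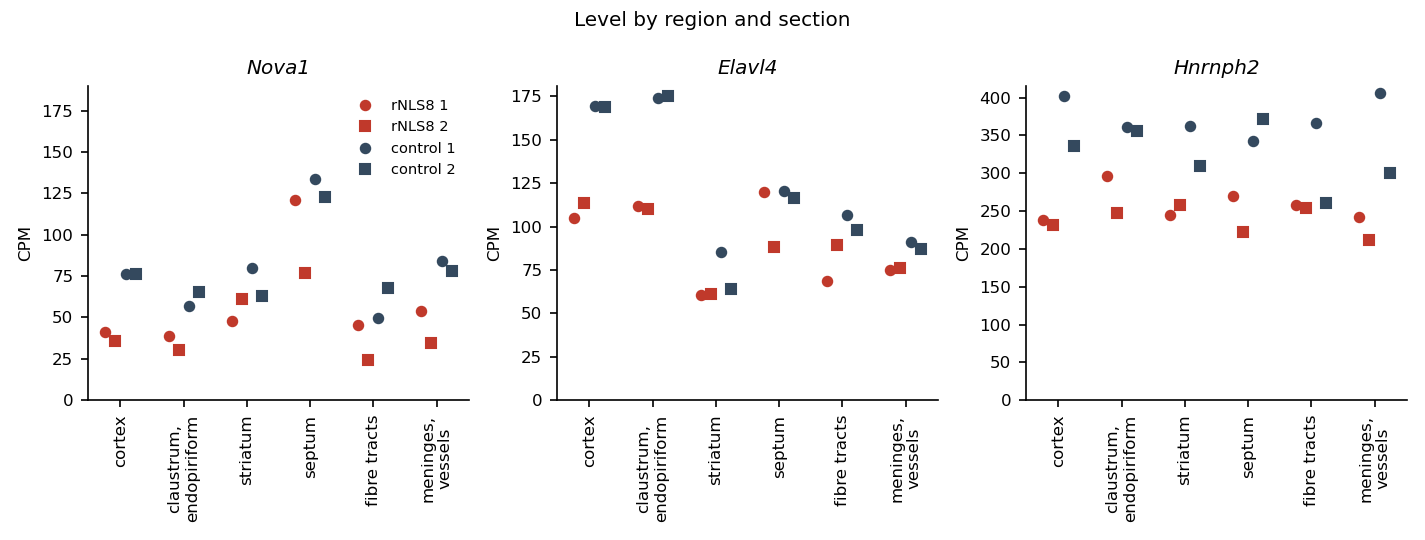
Level in CPM of Nova1, Elavl4 and Hnrnph2 in the 6 regions, with 1 point per section (rNLS8 in red, left, and control in dark blue, right; circles for replicate 1, squares for replicate 2) and axes from 0. The gap of Elavl4 between the groups is wide in cortex and in claustrum and endopiriform, and in septum rNLS8 replicate 1 (120.1 CPM) lies among the control sections.

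Whether the effect in the cortex differed from that in all other spots was tested on 8 sums with section as a block. Of 12919 genes, 31 (0.24%) were called by edgeR, and none of the 43 members. DESeq2 called none of the 40 members to which it gave an adjusted p, and 0.163% of such genes. An unadjusted p under 0.05 was found for 6 members, against 9.62% of all genes. The smallest adjusted p was that of Elavl4, whose fold was lower in the cortex than in other spots by a difference of -0.41 (SE 0.110, edgeR adjusted p = 0.160). The difference was -0.36 for Nova1 (SE 0.126, edgeR adjusted p = 0.320), -0.20 for Hnrnph2 (SE 0.0913, edgeR adjusted p = 0.494), 0.34 for Celf5 (SE 0.123, edgeR adjusted p = 0.338) and 1.17 for Srsf5 (SE 0.409, edgeR adjusted p = 0.322). No member is therefore shown to change more, or less, in the cortex than elsewhere.

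Markers of other cell types moved with the groups in the cortex. The 12 microglial markers summed to 1023 and 1558 CPM in rNLS8, against 385 and 504 CPM in control, with 6 called higher (C1qa, C1qb, C1qc, Trem2, Tyrobp and Cd68). The 12 general neuronal markers summed to 12300 and 11950 CPM in rNLS8, against 16610 and 15570 CPM in control, with a median fold of -0.55 and 1 called lower, Nefl, at 320 and 268 CPM in rNLS8, against 830 and 748 CPM in control (-1.42, SE 0.161, edgeR adjusted p = 0.0317). Excitatory neuron markers summed to 6718 and 7130 CPM in rNLS8, against 8943 and 8152 CPM in control. The sums of inhibitory neuron (1468 and 1236 CPM in rNLS8, against 1204 and 1603 CPM in control), oligodendrocyte (10740 and 9441 CPM in rNLS8, against 10440 and 8185 CPM in control), and endothelial and mural markers (420 and 443 CPM in rNLS8, against 440 and 412 CPM in control) overlapped between the groups, as did those of astrocytes (5087 and 5474 CPM in rNLS8, against 4433 and 5195 CPM in control), and no gene of these 5 lists was called. The part of these markers in the members' folds was not tested. Per 1000 UMI of the 12 neuronal markers, Nova1 had 3.53 and 3.13 UMI in the rNLS8 cortex, against 4.21 and 4.80 UMI in the control cortex, so the groups did not overlap on this measure. Elavl4 had 8.96 and 10.0 UMI per 1000 in rNLS8, against 9.33 and 10.6 UMI in control, and those groups overlapped. Hnrnph2 had 20.4 and 20.4 UMI per 1000 in rNLS8, against 22.1 and 21.2 UMI in control, a narrow gap with no overlap.

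The cortical spots of each section were also divided into 3 equal groups by the share of their UMI that came from the microglial markers, as a description with no test and in CPM of library totals. From the lowest to the highest group, Nova1 was at 45.6, 39.3 and 45.5 CPM in rNLS8 replicate 1 and at 37.6, 36.8 and 37.8 CPM in rNLS8 replicate 2. In control it was at 73.0, 71.0 and 65.6 CPM in replicate 1 and at 74.6, 80.4 and 68.7 CPM in replicate 2. All 6 rNLS8 values lay below all 6 control values. The groups were cut within each section, so their microglial levels differ, from 413 to 3020 summed CPM in rNLS8, against 94.5 to 904 CPM in control. Hnrnph2 ranged from 229 to 257 CPM over the 6 rNLS8 groups, against 325 to 380 CPM over the 6 control groups. Elavl4 ran from 141 to 99.8 CPM between the lowest and the highest group of rNLS8 replicate 2, and was at 100.04, 128 and 101 CPM in rNLS8 replicate 1. Its rNLS8 and control values overlapped over these groups, since the highest group of control replicate 1 was at 139.6 CPM.

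**Figure D5:**
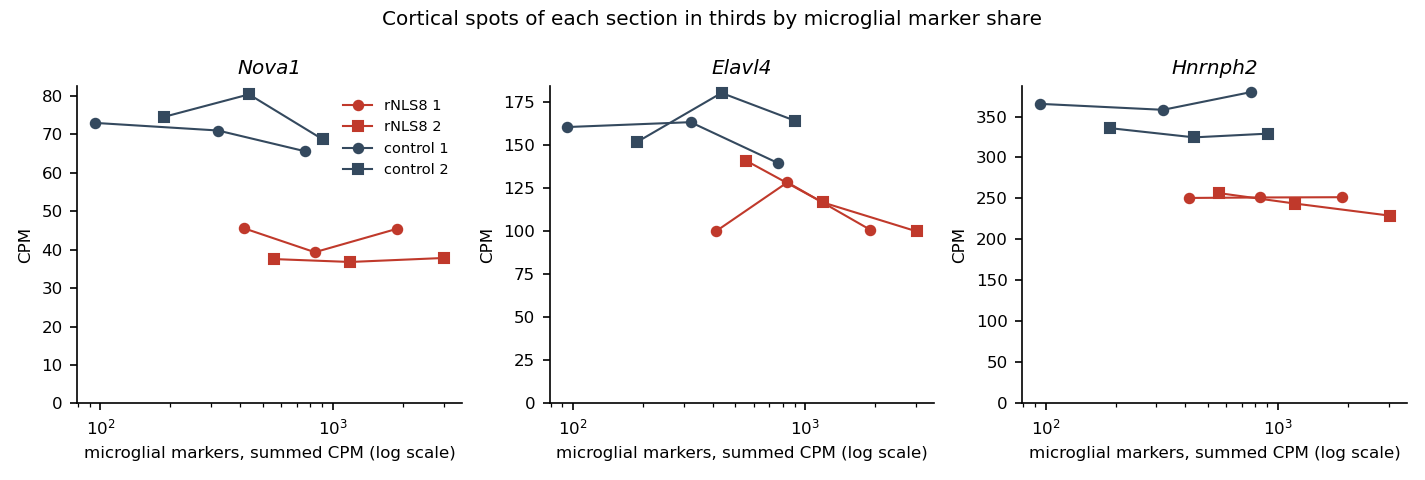
Level in CPM of library totals of Nova1, Elavl4 and Hnrnph2 in the cortical spots of each section, divided into 3 equal groups by microglial marker share (horizontal axis, summed CPM of 12 markers, log scale), with rNLS8 in red and control in dark blue. Nova1 lies between 36.8 and 45.6 CPM in rNLS8 and between 65.6 and 80.4 CPM in control, while the microglial levels overlap only in part, from 413 to 3020 summed CPM in rNLS8 and from 94.5 to 904 CPM in control.

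The regions themselves were also compared in the members' levels, in CPM of library totals. Comparing each gene with itself between cortex and fibre tracts in every section, among 35 members with at least 100 UMI in fibre tracts, 9 were higher in the cortex in 4 of 4 sections and 11 were lower in 4 of 4. Of the 13 Nova, Rbfox, Celf and Elavl genes among them, 8 were higher in 4 of 4 sections and 5 were mixed, Nova1, Celf1, Celf3, Elavl1 (-0.11) and Elavl3 (-0.12). The higher ones were Elavl2 (mean log2 ratio 0.69), Rbfox3 (0.65), Elavl4 (0.63), Celf5 (0.62), Nova2 (0.51), Celf4 (0.34), Celf2 (0.32) and Rbfox2 (0.31), with Hnrnpk (0.11). SR genes were lower in the cortex in 5 of 6, led by Srsf6 (-0.46), and Hnrnph3 had the lowest ratio of all (-0.73). Nova1 was higher in the cortex in 3 of 4 sections, rNLS8 replicate 1 being the exception. Mbp, a myelin gene, had a mean log2 ratio of -2.56. These ratios are descriptions, with no test. The share of all genes higher or lower in 4 of 4 sections was not counted. The 10 oligodendrocyte markers summed to 60650 and 59130 CPM in rNLS8 fibre tracts, against 60000 and 51240 CPM in control fibre tracts. In the cortex they summed to 10740 and 9441 CPM in rNLS8, against 10440 and 8185 CPM in control. The part of this in the members' ratios was not tested.

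Other genes of splicing were compared in the cortex by lists. Of 38 tested regulators outside these families, Tardbp alone was called, at 7.77 and 6.29 CPM in rNLS8, against 0 UMI in both control sections (edgeR adjusted p = 0.0317), and their median fold was -0.02, with 22 below 0. Khdrbs3, a STAR-family regulator of neurexin splicing, had the lowest fold, at 162 and 169 CPM in rNLS8, against 271 and 236 CPM in control (-0.61, SE 0.146, edgeR adjusted p = 0.0948). Rbm4, a regulator of alternative exons, had the highest fold after Tardbp, at 21.8 and 17.3 CPM in rNLS8, against 8.01 and 10.9 CPM in control (1.04, SE 0.260, edgeR adjusted p = 0.102). Neither gene overlapped between the groups, and Mbnl3 and Esrp1 are listed at 0 UMI in all sections. Of 16 kinases, import and methylation factors of SR proteins none was called. Prmt1, an arginine methyltransferase that modifies many hnRNP proteins, had 54.1 and 48.7 CPM in rNLS8, against 24.9 and 34.1 CPM in control (0.80, SE 0.198, edgeR adjusted p = 0.102), and Srpk3, an SR protein kinase, had 4.34 and 5.06 CPM in rNLS8, against 7.33 and 6.03 CPM in control (-0.50, SE 0.305, edgeR adjusted p = 0.396). Of 38 core spliceosome genes none was called, with 20 folds below 0 and a median of -0.02. Sf3b5 (-0.63, SE 0.157, edgeR adjusted p = 0.102) and Sf3b4 (1.21, SE 0.711, edgeR adjusted p = 0.384), both subunits of the complex that recognises the branch point, stood at its ends, and Snrpn is listed at 0 UMI in all sections.

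Moran's I, the authors' score per gene of how alike neighbouring spots of a section are, was tested for the 36 members detected in 10% of spots or more of every section. None was called by limma, where 2 of 6321 genes (0.0316%) were, and 5 members had an unadjusted p under 0.05, all lower in rNLS8, while 14.4% of all genes had one. Hnrnpu had scores of 0.00988 and 0.0222 in rNLS8, against 0.0950 and 0.0897 in control, a difference of -0.08 (limma adjusted p = 0.324). Hnrnpa0 had 0.0313 and 0.0340 in rNLS8, against 0.124 and 0.0838 in control (-0.07, limma adjusted p = 0.334), and Hnrnpab, Srsf6 and Hnrnpm followed. Both rNLS8 sections lay below both control sections for 18 members (50%), against 46.9% of all genes, so the members' share is near the background. The median score of all genes tested was itself 0.0251 and 0.0158 in rNLS8, against 0.0341 and 0.0331 in control. Spots with a count of Hnrnpu made up 93.3% and 89.2% of spots in rNLS8, against 70.6% and 81.3% in control, and the part of this in the scores was not tested.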

How the data were processed

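The authors made raw UMI counts for every gene at every tissue-covered spot with Space Ranger 2.1.0, per the file headers, on mm10, per the submitters' processing notes. Per the file headers, a deposited score is Moran's I, computed gene by gene within a section. No source used here names the probe set. The members and lists were chosen with earlier results of these data known.

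Spots with at least 500 UMI were kept, 3031 and 2655 in rNLS8 and 3810 and 3306 in control, of which 1827 array barcodes occur in all 4 sections. Clustering was tried 3 ways. Clustering on variable genes, and on genes with high Moran's I, gave clusters that separated by section or group. The third way was kept after its makeup per section was seen and before the members were fitted in regions. It used 93 region markers of at least 5 CPM, without members, with counts summed over a spot and its array neighbours, scaled to 10000, log-transformed and standardised within each section, then 12 principal components, 30 neighbours and Leiden resolution 0.8 (scanpy 1.11.5, leidenalg 0.10.2), which gave 15 clusters. Clusters were named by leading genes and markers; those left unnamed, the low-count rim and regions under 50 spots in any section (basal forebrain and preoptic, ependyma) were not tested as regions. No doublet caller was run, since a spot can hold several cells.

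UMI summed per section and region were fitted with edgeR 4.0.16 (R 4.3.3), TMM scaling and the default filter on low counts, with DESeq2 1.42.0 as an alternative. Moran's I was fitted with limma 3.58.1 with a trend by mean count. The edgeR comparison of the groups was tested on counts simulated for whole sections and for the cortex, with a fixed spread and no section set apart. The other fits were not tested in this way. Chi-square per degree of freedom between the sections of a group was 18.5 in rNLS8 and 46.2 in control, so spread exceeded counting error, and intervals and floors cover counting error only. Named members are each called one, the 5 largest rises and falls in cortex, the 3 largest in whole sections, and the largest and smallest fold of each family in cortex; others described were chosen after their values were seen, as were the 3 promoter windows and the groups by microglial share. Deviations of same-numbered sections from their group means correlated at -0.104 over 11950 genes, and the main fits do not pair the sections. With 2 sections per group, this correlation cannot exclude that same-numbered sections belong together. Alternatives were DESeq2, library totals, no filter, each section left out, the replicate block, all spots under tissue, equal numbers of spots per cluster, regions by marker score, layers apart and, added after seeing the data, a crossed block and sections without the rim. Tables and plots were made in Python 3.11.15 (pandas 2.3.3, matplotlib 3.10.9 and numpy 2.4.6). The 45 members matched 45 RefSeq genes.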

Additional observations from a re-analysis of the deposited data

Results flagged for a closer look

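By TMM-scaled CPM, Celf6 and Hnrnpul2 moved in opposite ways in a pair of regions, with no overlap of the groups in either region. The difference between the regions was not tested for either gene. Celf6 had a log2 fold of -0.27 in septum, where both rNLS8 sections lay below both control sections at 36.2 and 25.6 CPM, against 37.6 and 40.4 CPM in control. In the cortex its fold was 0.20, at 17.7 and 19.4 CPM in rNLS8, against 15.7 and 16.6 CPM in control. Hnrnpul2 had a log2 fold of -0.20 in striatum, at 21.7 and 17.6 CPM in rNLS8, against 22.3 and 23.5 CPM in control. In the cortex its fold was 0.28, at 25.8 and 29.5 CPM in rNLS8, against 21.3 and 24.3 CPM in control. In each region the gap between the nearest sections of the groups was small, and none of the 4 folds was called by edgeR. In CPM of library totals the groups overlapped in septum for Celf6 and in striatum for Hnrnpul2, so these patterns depend on the scaling. Celf6 in septum had 35 and 9 UMI in rNLS8, against 25 and 26 UMI in control. The share of all genes with such a pattern was not counted.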

How the results depend on the processing

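With 2 sections per group, the count of members called depended on single sections. In whole sections, where none was called, DESeq2 called 1 member, and leaving out 1 section gave 0 to 12, the 12 without control replicate 2, when 13.5% of all genes were called. In the cortex, with 1 call, DESeq2 called 3 members, library totals 0 and regions by marker score 0. Leaving out 1 section gave 0 to 20 there (0 without either rNLS8 replicate, 3 without control replicate 1 and 20 without control replicate 2, when 9.63% and 31.6% of all genes were called). In claustrum and endopiriform, with 1 call, DESeq2 gave 0, library totals 0, no filter 2 (4.47% of all genes called), marker score 0 and the replicate block 3 (6.9%), and leaving out 1 section gave 0 to 9 (9 without control replicate 2, with 13.9%). Leaving out 1 section gave 0 to 3 members in fibre tracts, in meninges and vessels and in septum, and 0 to 10 in striatum, with the highest each time without control replicate 2, when 7.15%, 4.3%, 5.66% and 14.3% of all genes were called in that order. Without a filter on low counts 1 member was called in striatum (5.03% of all genes) and 1 in the comparison of cortex with other spots (1.51%). A lone section left in a group is assumed to vary like the others.

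Over all genes, the calls in the cortex were 115, against 644 by DESeq2, 3 under library totals, 469 with no filter, 277 with the replicate block and 33 to 3974 with 1 section left out. In whole sections they were 0, against 526, 0, 239, 78 and 2 to 1839 under the same settings. The replicate block changed no other count of members called. The crossed block (rNLS8 replicate 1 with control replicate 2) called 310 genes and 1 member in the cortex, and 216 genes and 0 members in whole sections.

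Of 489 values of 15 named members under alternatives, 440 kept their direction and side of the threshold, 29 passed it, 9 no longer did and 11 reversed. Without control replicate 1, Hnrnpul1 was at -0.51 in whole sections and -0.25 in cortex, and Srsf7 at -0.17 and -0.20, while without control replicate 2 Hnrnpul1 was at 1.69 and 1.76 and Srsf7 at 1.002 and 1.14. Srsf7 in cortex was also -0.18 without rNLS8 replicate 1 and -0.071 in the upper-layer cluster, and Nova2 in cortex was 0.047 under library totals. In claustrum and endopiriform, Hnrnpul1 was at 0.22 without rNLS8 replicate 1, -0.79 without control replicate 1, 1.13 without control replicate 2 and 0.016 with the replicate block, and Srsf7 at -1.001 without control replicate 1 and 0.96 without control replicate 2. The causes were not tested.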
